A study of Mus musculus with 12 samples.

Results

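Adipokines are hormones and other proteins that adipocytes release into the blood or to neighbouring cells. The genes described here encode 10 of them, chosen by name as adipokines or factors secreted by brown fat: Lep, Adipoq, Retn, Cfd, Rbp4, Fgf21, Gdf15, Nrg4, Il6 and Metrnl. A gene was measured where a probe set (the group of array probes for 1 transcript) carried its symbol and no other. Of the 10, 8 were measured, each by 1 probe set, among 22180 genes in all, while Cfd and Gdf15 had 0 such probe sets and were not analysed here.

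Brown adipose tissue burns fat to make heat, and noradrenaline released in the cold switches this on through cAMP. White fat is the main source of leptin and adiponectin, but brown adipocytes also make them, together with factors such as neuregulin 4 and FGF21 that act on liver, nerves and the brown fat itself. Leptin tells the brain how much fat is stored, and sympathetic activity is known to lower its expression in fat.

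The tissue came from male mice of 10 weeks, either Zbtb7b knockout (KO) or wild type (WT), on standard chow. Zbtb7b is a zinc finger transcription factor best known from T cells. KO and WT mice were each kept at 4 °C for 4 h (cold) or at 22 °C (room temperature), which gave KO cold, WT cold, KO room temperature and WT room temperature groups of 3 arrays each. The labels do not say whether the knockout was limited to a cell type. The titles call the arrays biological replicates and another field numbers pools, without the number of animals behind an array, so the p-values speak of the spread among these samples.

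Values are the authors' log2 signals, on which 1 unit is a doubling. The array medians lay between 2.63 and 2.83, and differences are given as folds only where both group means were at least 4. Zbtb7b lay between 2.96 and 3.62 on the KO arrays and between 4.26 and 4.76 on the WT arrays, and whether its probe set covers the deleted part is unknown. Ucp1, the uncoupling protein that defines brown fat, lay between 11.55 and 12.95 on the 12 arrays. It was lower in KO than in WT mice at room temperature (-0.80 ± 0.14, adjusted p = 0.0257), stood at -0.11 ± 0.14 in the cold (adjusted p = 0.783) and rose with cold in KO mice (1.06 ± 0.14, adjusted p = 2.80e-04). One label field contradicts the titles by naming liver on every array, and an Nrg4 knockout on 10 of the 12. Nrg4 itself lay between 7.55 and 8.41 on those 10 arrays and at 7.73 and 7.89 on the other 2, and the hepatocyte product albumin (Alb) lay between 1.20 and 2.75, so the arrays are described here by their titles. Other arrays stood apart in single cell type lists: skeletal muscle genes averaged between 3.14 and 8.46 with no separation of the groups, WT cold replicate 2 was highest for white adipocyte genes and KO cold replicate 3 for neutrophil genes. At room temperature 3 cell type lists separated the genotypes. Brown adipocyte genes averaged 8.62 to 8.91 in KO and 9.36 to 9.51 in WT mice. The median difference of these 11 genes was only -0.14. Of them 3 were called lower in KO mice (Dio2 at -3.55, Elovl3 and Ucp1) and 0 higher, against 0.284% lower and 0.266% higher over all genes. The share of brown adipocytes in the tissue was not tested. Macrophage genes averaged 5.85 to 6.25 in KO and 5.19 to 5.51 in WT mice and neutrophil genes 2.38 to 2.75 in KO and 2.25 to 2.35 in WT mice. In the cold 3 lists separated the genotypes. Brown adipocyte genes averaged 10.17 to 10.22 in KO and 10.24 to 10.33 in WT mice. The median difference of these 11 genes was -0.06 and 0 were called, against 0.911% of all genes. Elovl3, 1 of them, averaged 9.21 in KO and 10.52 in WT cold mice. Endothelial genes averaged 8.04 to 8.22 in KO and 8.31 to 8.37 in WT mice, with 0 of 12 called. Hepatocyte genes averaged 2.94 to 3.02 in KO and 2.75 to 2.86 in WT mice, with 1 of 20 called. These hepatocyte averages, and the neutrophil averages at room temperature, lay near or below the array medians. The part of these cell type lists in the differences between KO and WT mice given here was not tested.

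The cold changed several of these genes within 4 h, and leptin by the most. In KO mice 2 members rose (Rbp4 and Metrnl) and 1 fell (Lep), or 3 of 8, against 19.2% of all genes called in that comparison (8.34% higher and 10.8% lower). In WT mice 3 members rose (Fgf21, Nrg4 and Metrnl) and 1 fell (Lep), or 4 of 8, against 17.4% of all genes (9.39% higher and 7.98% lower). At an unadjusted p under 0.05 the counts were 5 of 8 in KO and 5 of 8 in WT mice, against 29.8% and 28.9% of all genes. The cold and room temperature arrays did not overlap for 4 of 8 members in KO and 4 of 8 in WT mice, against 31.6% and 36.8% of all genes. The members' median log2 difference was 0.19 in KO mice and 0.19 in WT mice, against 0.00388 and -0.02 over all genes.

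Between KO and WT mice 0 of the 8 members were called in the cold, against 0.911% of all genes, and 0 of 8 at room temperature, against 0.55%. At an unadjusted p under 0.05, 3 members (Lep, Nrg4 and Il6) differed in the cold and 1 (Lep) at room temperature, against 14.4% and 11.4% of all genes. The KO and WT arrays did not overlap for 2 members in the cold (Lep and Nrg4) and for 0 at room temperature, against 20.6% and 17% of all genes. The test of the difference between the cold responses of KO and WT mice called 0 members, against 0.0271% of all genes (0.0225% higher and 0.00451% lower), and 1 (Lep) at an unadjusted p under 0.05, against 10.5% of all genes.

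**Figure D1:**
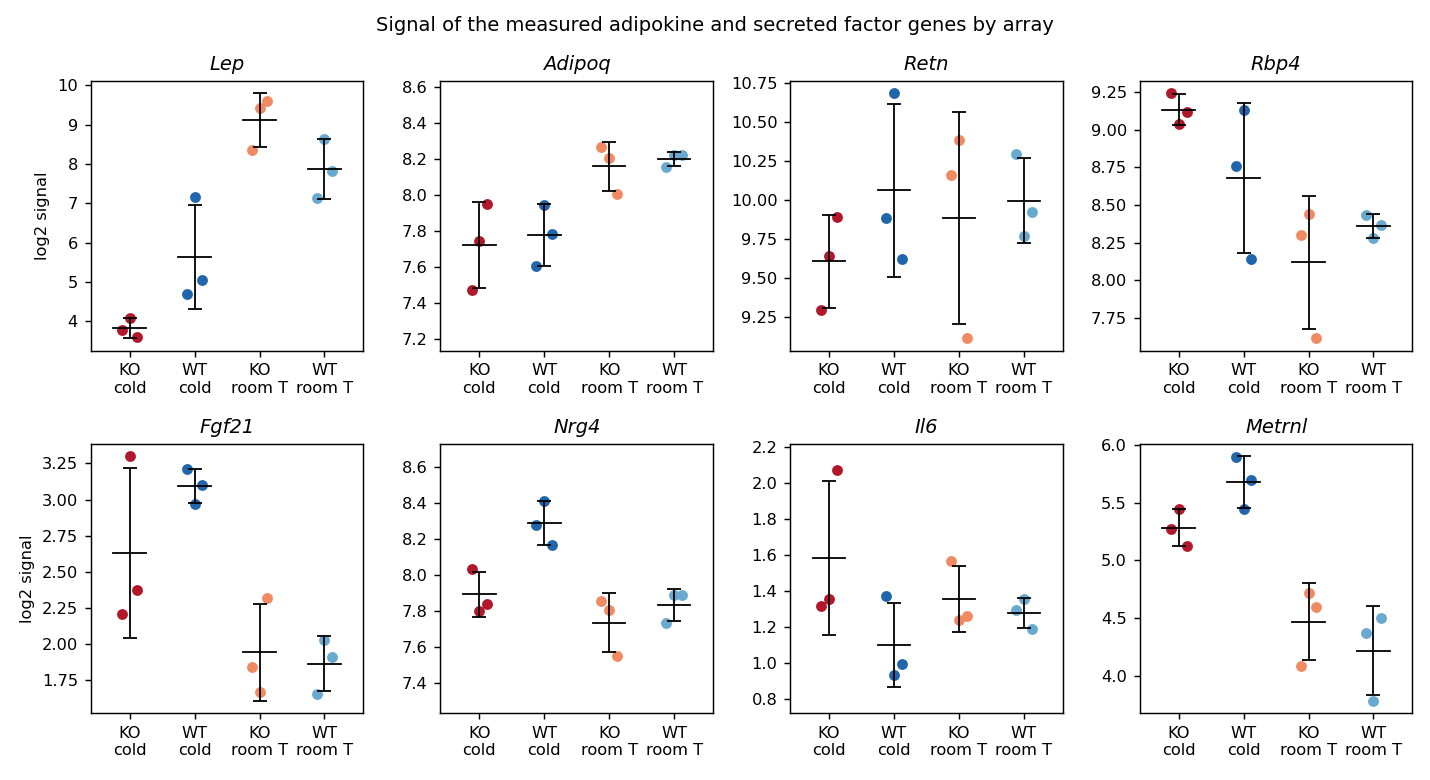
Log2 signal (vertical axes, a separate scale for each gene) of the 8 measured genes on each of the 12 arrays by group, with points for arrays, a bar for the group mean and whiskers for the SD. The 3 KO cold arrays lie lowest for Lep, from 3.59 to 4.09, and the WT cold arrays lie highest for Nrg4, from 8.17 to 8.41.

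Lep, the gene of the satiety hormone leptin, had log2 signals of 3.78, 4.09 and 3.59 on the KO cold arrays, against 8.34, 9.42 and 9.60 on the KO room temperature arrays. The groups lay far apart, and the cold arrays were brought down close to the signal of a typical probe set. The log2 difference in KO mice came to -5.30 ± 0.57 (SE, 3 arrays against 3, limma adjusted p = 7.74e-05), which was the largest fall of all 22180 genes in that comparison. In WT mice Lep had 4.70, 7.16 and 5.05 in the cold, against 7.13, 8.65 and 7.83 at room temperature. WT cold replicate 2 stood above the other cold arrays and just above the lowest room temperature array. The difference in WT mice was -2.23 ± 0.57 (4.70-fold lower, 95% interval 1.99 to 11.1, adjusted p = 0.0174), rank 26 among the falls. That call was lost without WT cold replicate 1 (-1.76, adjusted p = 0.0789), without WT cold replicate 3 (-1.94, adjusted p = 0.0758) or without WT room temperature replicate 2 (-1.84, adjusted p = 0.0760), while the fall in KO mice passed in each of the 12 fits that left out 1 array.

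Between genotypes, the 3 KO cold arrays lay below the 3 WT cold arrays for Lep. The means were 3.82 ± 0.26 (SD) in KO cold and 5.64 ± 1.33 in WT cold mice, and the difference of -1.82 ± 0.57 did not pass (unadjusted p = 0.00774, adjusted p = 0.168). Without WT cold replicate 2 it was -1.06 (adjusted p = 0.398). At room temperature the mean was 9.12 ± 0.68 in KO mice and 7.87 ± 0.76 in WT mice, with overlapping arrays, and the difference of 1.25 ± 0.57 did not pass either (adjusted p = 0.435). The cold response was thus -5.30 in KO and -2.23 in WT mice. The test of the difference between these responses gave -3.07 ± 0.81 (95% interval -4.83 to -1.31, unadjusted p = 0.00247), which ranked 4 among all genes, counted from the lowest, and did not pass after adjustment over all genes (adjusted p = 0.248, and 0.126 to 0.401 over the alternatives).

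**Figure D2:**
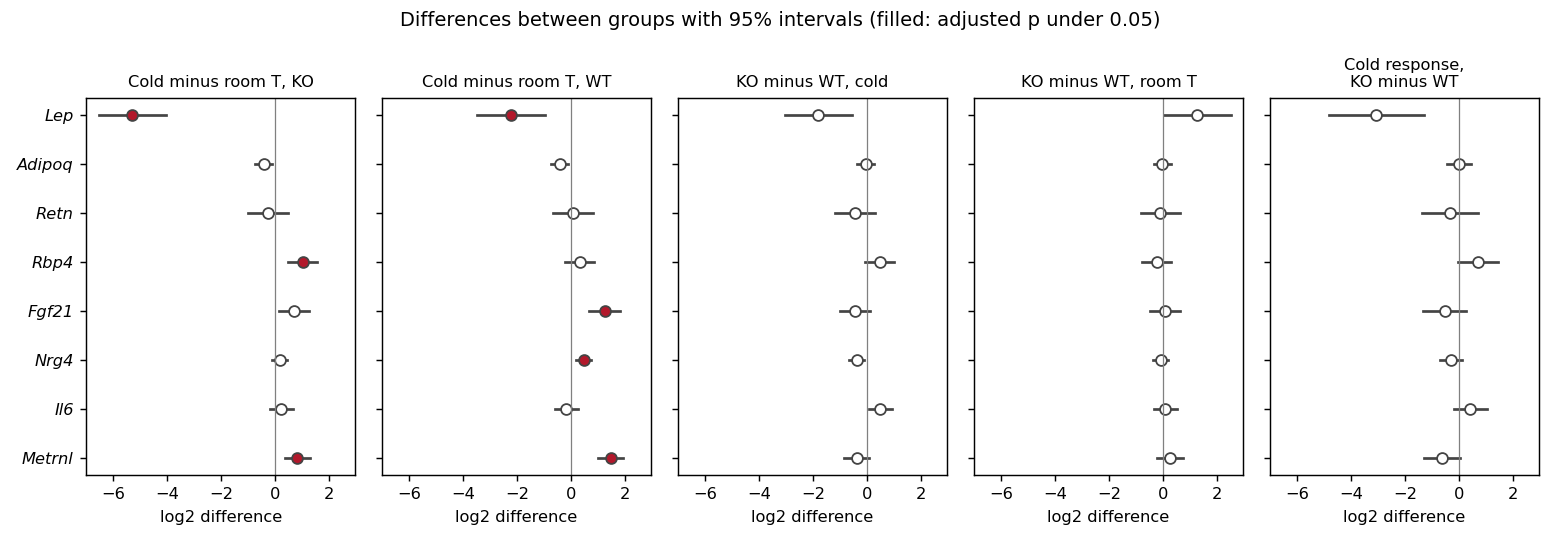
Log2 differences (horizontal axes) of the 8 genes in 5 comparisons with their 95% intervals, where filled points passed at an adjusted p under 0.05. Lep is lowest in both cold responses, at -5.30 in KO and -2.23 in WT mice, and no filled point appears in the comparisons of KO with WT mice.

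The promoter of Lep is shown because it holds a binding sequence of the C/EBP family, known activators of leptin transcription in adipocytes. It is RefSeq sequence of the mouse build GRCm38.p6, chr6:29059971-29060220 on the plus strand, the 250 bases before the annotated start, with the motif in capitals.
Lep: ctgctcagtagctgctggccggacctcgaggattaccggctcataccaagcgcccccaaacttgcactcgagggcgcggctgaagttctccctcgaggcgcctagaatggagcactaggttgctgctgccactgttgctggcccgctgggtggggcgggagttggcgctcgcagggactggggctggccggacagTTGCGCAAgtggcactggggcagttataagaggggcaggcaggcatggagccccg
The capitals mark TTGCGCAA, a C/EBP palindrome, at positions -55 to -48 from the start, which was found in 0.183% of 32851 mouse promoter windows of 300 bases (250 before to 50 after the start, both strands). Among the 12 windows of the 10 genes, Lep's was the 1 that held it. Cebpa, which encodes C/EBP alpha, fell in the cold in both genotypes. Its signal was 7.33, 8.45 and 8.77 in KO cold mice, against 10.44, 10.35 and 10.17 at room temperature (log2 difference -2.14 ± 0.29, adjusted p = 3.72e-04). In WT mice it was 7.80, 8.28 and 8.04 in the cold, against 10.58, 10.23 and 10.16 at room temperature (-2.29 ± 0.29, adjusted p = 2.82e-04). Other members of the family stood on the other side of 0 in the cold. Cebpd rose in WT mice (0.90 ± 0.24, adjusted p = 0.0223) and stood at 0.60 ± 0.24 in KO mice (adjusted p = 0.115), and Cebpb stood at 0.44 in KO and 0.39 in WT mice (adjusted p = 0.255 and 0.317). The part of the C/EBP family in the fall of Lep was not tested. The receptor gene Lepr lay between 1.12 and 2.32 on all 12 arrays, below the array medians, and was called in 0 of the 5 comparisons.

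The genes whose pattern over the 12 arrays came closest to that of Lep, by the root mean square difference of gene-centred log2 signals among 8474 genes averaging 5 or more, were Tnfsf10 (0.938), Aplnr (0.940) and Klhdc7a (1.07). The median over those genes was 2.15. Aplnr, the receptor of the peptide apelin, had a cold response of -4.63 ± 0.24 in KO and -2.62 ± 0.24 in WT mice, and Tnfsf10, which encodes the death ligand TRAIL, had -3.61 ± 0.35 and -1.67 ± 0.35. Both genes were chosen for their likeness to Lep on these arrays, so these responses are a description.

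Other cells in the dissections are described with Lep because leptin and resistin are also white adipocyte genes. In bulk tissue, fewer cells of a type and less RNA per cell cannot be told apart. The mean of 9 white adipocyte genes without Lep and Retn lay between 5.58 and 5.84 in KO cold, 5.68 and 6.36 in WT cold, 5.61 and 5.85 in KO room temperature and 5.30 and 5.68 in WT room temperature mice. WT cold replicate 2, the array with the high Lep signal, had the highest value at 6.36. The same array was the highest of the 3 WT cold arrays for 5 of the 9 white adipocyte genes and for 5 of the 8 members (Lep, Adipoq, Retn, Rbp4 and Nrg4). The share of all genes highest on that array was not computed, so these counts are a description. Of the 9 genes, Hoxc9, Hoxc10 and Tcf21 lay between 1.34 and 2.34, below the array medians. Npr3 rose with cold in WT mice (2.62 ± 0.29, adjusted p = 1.19e-04), which raises the list mean there. The part of white fat in these values was not tested, and the fall of Lep in WT mice was -2.99 without WT cold replicate 2.

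**Figure D3:**
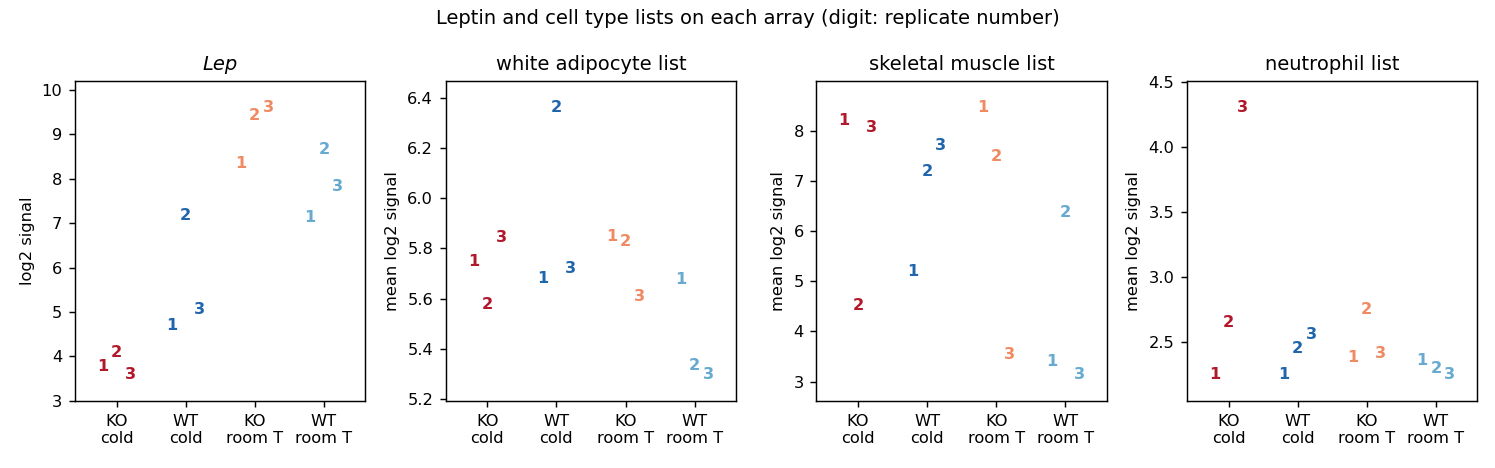
Log2 signal of Lep and mean log2 signal of 3 cell type lists (vertical axes) on each array by group, where the digits are replicate numbers. WT cold replicate 2 is highest for the white adipocyte list at 6.36, KO cold replicate 3 is highest for the neutrophil list at 4.30, and the skeletal muscle list runs from 3.14 to 8.46 with no separation of the groups.

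Adipoq encodes adiponectin, the abundant adipocyte hormone that raises insulin sensitivity. Its signals were 7.47, 7.74 and 7.95 in KO cold mice, against 8.27, 8.21 and 8.01 at room temperature. In WT mice they were 7.61, 7.95 and 7.78 in the cold, against 8.16, 8.23 and 8.22 at room temperature. In both genotypes the cold arrays lay below all room temperature arrays. The differences were small, at -0.44 ± 0.15 in KO mice (adjusted p = 0.0559) and -0.42 ± 0.15 in WT mice (adjusted p = 0.0689), and neither passed. They did pass in 4 of 21 alternatives in each genotype, among them the restriction to genes averaging 5 or more (adjusted p = 0.0237 in KO and 0.0296 in WT mice). KO and WT mice differed by -0.06 (95% interval -0.37 to 0.26) in the cold and -0.04 (-0.36 to 0.28) at room temperature.

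Adiponectin acts through Adipor1 and Adipor2 and binds T-cadherin, encoded by Cdh13. Adipor2 fell in KO mice in the cold (-0.37 ± 0.11, adjusted p = 0.0317) and stood at -0.20 ± 0.11 in WT mice (adjusted p = 0.254). Adipor1 and Cdh13 were called in 0 of the 5 comparisons. Of 6 measured genes for the folding and export of adiponectin, 1 rose and 2 fell in the cold in KO mice, and 0 were called in WT mice. Over all genes 19.2% were called in KO and 17.4% in WT mice. The oxidoreductase gene Ero1a rose (0.53 ± 0.16, adjusted p = 0.0346), while Gstk1 (-0.45 ± 0.13, adjusted p = 0.0317) and the cargo receptor Lman1 (-0.50 ± 0.13, adjusted p = 0.0163) fell. In WT mice Ero1a stood at 0.37, Gstk1 at -0.35 and Lman1 at -0.27, on the same side of 0. The test of the difference between responses called 0 of the 6 genes.

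Retn encodes resistin, a small cysteine-rich hormone that is made by adipocytes in the mouse. It had signals of 9.29, 9.64 and 9.89 in KO cold, 9.88, 10.68 and 9.62 in WT cold, 10.16, 10.38 and 9.11 in KO room temperature and 10.29, 9.77 and 9.92 in WT room temperature mice. All 4 groups overlapped, and the spread within a group was up to 0.68 (SD, KO room temperature). The cold differences were -0.28 ± 0.33 in KO mice (95% interval -1.01 to 0.45) and 0.07 ± 0.33 in WT mice (-0.66 to 0.80). In the same comparisons the other adipocyte hormones Lep and Adipoq stood at -5.30 and -0.44 in KO and at -2.23 and -0.42 in WT mice.

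Rbp4 encodes the plasma carrier of retinol, which fat also secretes. It had 9.24, 9.04 and 9.12 in KO cold mice, against 8.30, 8.44 and 7.61 at room temperature. The KO cold arrays lay close together and above all KO room temperature arrays. The rise was 1.01 ± 0.25 (2.02-fold, 95% interval 1.39 to 2.92, adjusted p = 0.0118), and it passed in all 21 alternatives (0.76 to 1.17). In WT mice the signals were 8.76, 9.13 and 8.14 in the cold, against 8.44, 8.28 and 8.36 at room temperature, with 1 cold array below the others. That difference was 0.32 ± 0.25 (adjusted p = 0.452). The responses differed by 0.70 ± 0.35 between KO and WT mice, which did not pass (unadjusted p = 0.0677, adjusted p = 0.513). The retinol-binding protein receptor genes Stra6 and Stra6l lay between 1.48 and 2.55 and between 1.42 and 2.13 on the 12 arrays, below the array medians, and were called in 0 comparisons. The patterns closest to Rbp4 were those of Mertk (0.225), Snord17 (0.240) and Tmem11 (0.245), against a median of 0.564.

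Fgf21 encodes a hormone of the fibroblast growth factor family that raises energy use. Its signals were 2.21, 3.30 and 2.38 in KO cold mice, against 1.84, 1.66 and 2.32 at room temperature. In WT mice they were 3.21, 2.97 and 3.10 in the cold, against 1.65, 2.03 and 1.91 at room temperature. All these values lay near or below the array medians, so the sizes of the differences are compressed and are given on the log2 scale alone. In WT mice the cold arrays lay above all room temperature arrays and the rise of 1.23 ± 0.26 passed (adjusted p = 0.00562), also in each of the alternatives that kept the gene. In KO mice 1 cold array was as high as the WT cold arrays and the other 2 were near room temperature levels, and the difference of 0.69 ± 0.26 did not pass (adjusted p = 0.0855). It passed with the skeletal muscle list mean as a covariate (0.74, adjusted p = 0.0291) and without KO cold replicate 1 (0.90, adjusted p = 0.0365). The responses differed by -0.54 ± 0.36 between KO and WT mice (95% interval -1.33 to 0.25, adjusted p = 0.623).

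The promoter of Fgf21 is shown because ATF4, a transcription factor of the integrated stress response, is known to drive this gene. It is RefSeq sequence of GRCm38.p6, chr7:45615491-45615740 on the minus strand, written in the direction of transcription.
Fgf21: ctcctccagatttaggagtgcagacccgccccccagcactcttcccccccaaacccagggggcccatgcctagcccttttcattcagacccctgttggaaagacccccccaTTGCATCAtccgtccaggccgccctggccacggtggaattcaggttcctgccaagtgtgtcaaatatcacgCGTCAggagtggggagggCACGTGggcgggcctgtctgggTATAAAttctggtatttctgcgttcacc
The capitals mark, from left to right, the reverse complement of TGATGNAA (a core shared by C/EBP and ATF composite elements) at -139 to -132, the reverse complement of the cAMP response element core TGACG at -68 to -64, the E-box CACGTG at -50 to -45 and a TATA box (TATAAA) at -28 to -23. They do not overlap each other. These letters were found in 3.97%, 20.8%, 7.15% and 13.6% of the 32851 windows, and in 2, 3, 2 and 2 of the 12 windows of these 10 genes. The full cAMP response element TGACGTCA, which contains TGACG, was found in 1.79% of all windows and in 0 of the 12.

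Of 17 ATF4 stress response genes, 10 rose and 0 fell in the cold in KO mice (median 1.12), and 9 rose and 0 fell in WT mice (median 0.96). Over all genes 8.34% were called higher in KO and 9.39% in WT mice. Atf4 itself rose by 1.75 ± 0.20 in KO (adjusted p = 9.75e-05) and by 1.64 ± 0.20 in WT mice (adjusted p = 1.74e-04). Mthfd2, a mitochondrial enzyme of folate metabolism and a known ATF4 target, rose by 2.34 in KO and 2.29 in WT mice, and Atf3 rose by 3.27 in KO and 2.10 in WT mice. Atf5, a related transcription factor, rose by 1.30 ± 0.26 in KO (adjusted p = 0.00434) and by 1.85 ± 0.26 in WT mice (adjusted p = 5.38e-04). Others of the list lay below 0 in the cold without passing. Ddit3 stood at -0.17 in KO and -0.49 in WT mice, Nupr1 at -0.60 and -0.19, and Pck2 at -0.34 and -0.22. Of these 17 genes, 0 differed between KO and WT mice at either temperature or in their cold response. The part of ATF4 in the Fgf21 signal was not tested.

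The receptor complex of FGF21 consists of an FGF receptor, mainly that encoded by Fgfr1, and beta-klotho, encoded by Klb. Klb had 8.53, 8.75 and 9.63 in KO cold mice, against 8.36, 8.21 and 8.87 at room temperature, with overlapping arrays (0.49 ± 0.34, adjusted p = 0.392). In WT mice it had 7.73, 8.47 and 7.53 in the cold, against 9.59, 8.62 and 8.86 at room temperature. The WT cold arrays lay below all WT room temperature arrays, and the fall of 2.16-fold passed (log2 difference -1.11 ± 0.34, adjusted p = 0.0410). The difference between the responses was 1.60 ± 0.48 and did not pass over all genes (unadjusted p = 0.00594, adjusted p = 0.290). Fgfr1 stood at -0.21 ± 0.18 in KO and -0.46 ± 0.18 in WT mice in the cold, and neither passed (adjusted p = 0.483 and 0.101).

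Nrg4 encodes neuregulin 4, an EGF-like ligand that brown fat releases and that signals to the liver. It had 8.04, 7.80 and 7.84 in KO cold mice, against 7.85, 7.80 and 7.55 at room temperature. The KO arrays overlapped, and the difference was 0.16 ± 0.13 (95% interval -0.13 to 0.44, adjusted p = 0.483). In WT mice it had 8.28, 8.41 and 8.17 in the cold, against 7.73, 7.89 and 7.89 at room temperature. The WT cold arrays lay above all WT room temperature arrays, and the rise of 0.45 ± 0.13 (1.37-fold, 95% interval 1.13 to 1.67) passed at an adjusted p of 0.0307.

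The call for Nrg4 in WT mice was lost in 7 of 21 alternatives. It was lost after cyclic loess (0.36, adjusted p = 0.0962), with the skeletal muscle list mean as a covariate (0.36, adjusted p = 0.111), and without any 1 of 5 arrays. Without WT cold replicate 1 or 2 the difference was 0.46 or 0.39 (adjusted p = 0.0818 and 0.119). Without WT room temperature replicate 1, 2 or 3 it was 0.40, 0.48 or 0.48 (adjusted p = 0.0999, 0.0595 and 0.0548), against 0.45 with all arrays. The muscle list itself lay between 5.20 and 7.70 in WT cold mice and between 3.14 and 6.37 in WT room temperature mice. In the cold, the 3 KO arrays lay below the 3 WT arrays for Nrg4, a difference of -0.40 ± 0.13 that did not pass (unadjusted p = 0.0100, adjusted p = 0.189). The responses differed by -0.30 ± 0.18 (adjusted p = 0.596). The patterns closest to Nrg4 were those of Pdhx (0.101), Pdia3 (0.119) and Snw1 (0.121), against a median of 0.376.

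Neuregulin 4 binds ErbB4, and ErbB3 is a related receptor for other neuregulins that pairs with it. Erbb4 had 6.43, 5.51 and 5.91 in WT cold mice, against 7.33, 7.11 and 7.17 at room temperature, a fall of 2.39-fold (log2 difference -1.26 ± 0.20, adjusted p = 0.00120). In KO mice it had 6.41, 6.68 and 6.92 in the cold, against 7.20, 7.24 and 7.29 at room temperature. Those arrays did not overlap either, but the difference of -0.57 ± 0.20 did not pass (adjusted p = 0.0710). The responses differed by 0.68 ± 0.29 (unadjusted p = 0.0356, adjusted p = 0.434). Erbb3 fell in both, by 0.95 ± 0.19 on the log2 scale in KO (adjusted p = 0.00375) and by 1.20 ± 0.19 in WT mice (adjusted p = 0.00100). In WT mice the ligand gene was thus higher and both receptor genes lower after 4 h of cold.

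Metrnl encodes meteorin-like, a secreted protein of muscle and fat that is induced by exercise and cold. It had 5.27, 5.45 and 5.12 in KO cold mice, against 4.09, 4.72 and 4.60 at room temperature. In WT mice it had 5.89, 5.44 and 5.70 in the cold, against 4.37, 3.78 and 4.50 at room temperature. In both genotypes each cold array lay above each room temperature array. The rise was 1.76-fold in KO mice (log2 difference 0.81 ± 0.22, adjusted p = 0.0192) and 2.75-fold in WT mice (1.46 ± 0.22, adjusted p = 6.77e-04). The call in KO mice was lost without KO cold replicate 2 (0.73, adjusted p = 0.0688) or without KO room temperature replicate 1 (0.62, adjusted p = 0.0781). The responses differed by -0.65 ± 0.31 (95% interval -1.31 to 0.02, unadjusted p = 0.0557), which did not pass (adjusted p = 0.484). Kit, which encodes the receptor reported for meteorin-like, fell in KO mice in the cold (-0.98 ± 0.27, adjusted p = 0.0233) and stood at -0.80 ± 0.27 in WT mice (adjusted p = 0.0650).

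The promoter of Metrnl is shown for comparison with that of Fgf21, the other member called higher in WT mice by over 1 log2 unit. It is RefSeq sequence of GRCm38.p6, chr11:121702177-121702426 on the plus strand.
Metrnl: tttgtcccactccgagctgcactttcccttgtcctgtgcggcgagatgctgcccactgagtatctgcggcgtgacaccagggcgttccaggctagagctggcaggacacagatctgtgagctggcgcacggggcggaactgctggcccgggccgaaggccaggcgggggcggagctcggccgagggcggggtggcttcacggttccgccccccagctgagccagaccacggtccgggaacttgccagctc
It has no capitals because 0 of the 6 motifs named above were found there, and its GC content was 68.4%, against 59.6% in the stretch of Fgf21 and 65.6% in that of Lep. The patterns closest to Metrnl over the 12 arrays were those of Atp6v1h (0.160), Etf1 (0.188) and Spata5 (0.192), against a median of 0.678, and those closest to Fgf21 were Bicd2 (0.137), Ppid (0.155) and Zfp131 (0.194), against 0.628.

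Il6 encodes interleukin 6, a cytokine that brown fat can release under adrenergic stimulation. Its signal lay between 0.93 and 2.07 on the 12 arrays, below every array median, so that a low level could not be told from background. It had 1.31, 1.36 and 2.07 in KO cold, 1.37, 0.93 and 0.99 in WT cold, 1.57, 1.24 and 1.26 in KO room temperature and 1.29, 1.35 and 1.19 in WT room temperature mice. The cold differences were 0.23 ± 0.20 in KO and -0.18 ± 0.20 in WT mice, and neither passed (adjusted p = 0.517 and 0.633). KO cold replicate 3, the highest array, also had the highest neutrophil list mean of the 12 (4.30, against 2.25 to 2.75 on the others) and the highest Socs3 signal of the KO cold arrays (5.21, against 2.48 and 3.27). KO and WT mice differed by 0.48 ± 0.20 in the cold (unadjusted p = 0.0329, adjusted p = 0.294) and by 0.24 without that array. The part of neutrophils in its Il6 signal was not tested.

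Of 14 measured genes known to respond to IL6 and STAT3, 4 rose and 0 fell in the cold in KO mice (median 0.74), and 5 rose and 0 fell in WT mice (median 0.55). Over all genes 8.34% were called higher in KO and 9.39% in WT mice. The list averaged 5.67, 6.14 and 6.84 on the KO cold arrays, with replicate 3, the array high in neutrophil genes, above the others, and between 5.97 and 6.08 in WT cold mice. Bcl3 rose by 1.30 ± 0.21 in KO and 0.93 ± 0.21 in WT mice, and Il4ra rose by 1.70 ± 0.30 in KO and 1.18 ± 0.30 in WT mice. Osmr, the receptor of oncostatin M, rose in KO mice (0.86 ± 0.16, adjusted p = 0.00258) and was higher in KO than in WT mice in the cold (0.77 ± 0.16, adjusted p = 0.0496). Fosl2 rose by 1.28 ± 0.20 in KO and 1.02 ± 0.20 in WT mice. Among the genes of the list that did not pass in the cold in either genotype were Socs3, Socs1, Junb and Hp. Socs3 stood at 0.74 in KO and 0.12 in WT mice, Socs1 at -0.13 and 0.24, Junb at -0.48 and -0.40, and Hp at -0.07 and -0.25. The part of IL6 in these values was not tested. Of the receptor genes of IL6, Il6st fell in WT mice (-0.44 ± 0.14, adjusted p = 0.0431) and stood at -0.38 ± 0.14 in KO mice (adjusted p = 0.0723), and Il6ra was called in 0 comparisons.

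The receptors of the members as a list had 17 measured genes, of which 0 rose and 3 fell in the cold in KO mice (Adipor2, Erbb3 and Kit) and 0 rose and 4 fell in WT mice (Klb, Erbb3, Erbb4 and Il6st). Over all genes 19.2% were called in KO mice (10.8% lower) and 17.4% in WT mice (7.98% lower), so that the receptors' counts called lie near the overall shares. Their medians were 0.06 in KO and -0.08 in WT mice, against 0.00388 and -0.02 over all genes. Of 18 transcription regulators known to act on adipokine genes, 6 rose and 3 fell in KO mice, and 8 rose and 3 fell in WT mice, beside the same shares of all genes. Ppargc1a, the coactivator of thermogenic genes, rose to a mean signal of 12.08 in KO cold mice, against 9.08 in KO mice at room temperature, and by 2.32 ± 0.12 in WT mice. Srebf1, a regulator of fat synthesis, fell by 2.08 on the log2 scale in KO and by 2.19 in WT mice. Of the 17 receptors and 18 regulators, 0 differed between KO and WT mice at either temperature.

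**Figure D4:**
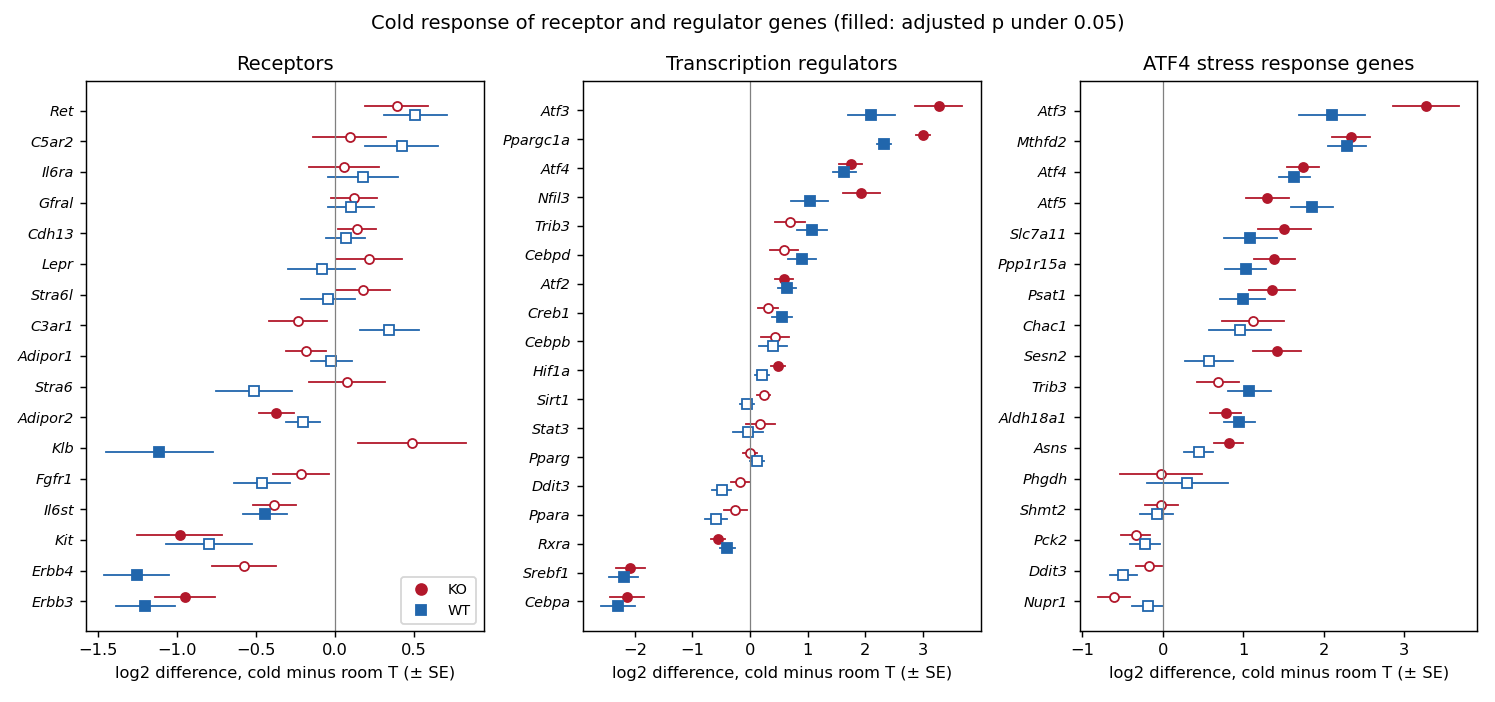
Log2 difference of cold minus room temperature (horizontal axes, with SE) in KO (circles) and WT mice (squares) for receptors, transcription regulators and ATF4 stress response genes, with filled symbols at an adjusted p under 0.05. Cebpa lies at -2.14 in KO and -2.29 in WT mice and Atf3 at 3.27 and 2.10, while Klb lies at 0.49 and -1.11.

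Of 45 other measured adipokines and secreted factors of fat, 3 rose and 5 fell in the cold in KO mice (median -0.10), and 5 rose and 3 fell in WT mice (median 0.05). These counts of 8 of 45 in each genotype lie near the shares of all genes called, 19.2% in KO and 17.4% in WT mice. Edn1, which encodes the vasoconstrictor endothelin 1, rose by 2.03 ± 0.18 in KO and 1.92 ± 0.18 in WT mice, and Angptl8, an inhibitor of lipoprotein lipase with its relatives, rose by 0.93 ± 0.21 in KO and 0.69 ± 0.21 in WT mice. Il15, a cytokine of lymphocyte maintenance, fell by 2.27 on the log2 scale in KO (adjusted p = 1.32e-04) and by 0.89 in WT mice (adjusted p = 0.0374). Bmp8b, a factor that sensitises brown fat to adrenergic signals, rose in WT mice (1.14 ± 0.22, adjusted p = 0.00317) and stood at 0.40 ± 0.22 in KO mice (adjusted p = 0.248). Its group means, from 2.14 to 3.41, lay near the array medians. The responses of Bmp8b differed by -0.74 ± 0.31, which did not pass (adjusted p = 0.425). C1qtnf9, a relative of adiponectin, fell in KO mice (-1.50 ± 0.17, adjusted p = 1.11e-04), stood at -0.08 in WT mice (adjusted p = 0.817) and was lower in KO than in WT mice in the cold (-1.09 ± 0.17, adjusted p = 0.0140), while the test of the difference between responses did not pass (adjusted p = 0.0695). Ptgds, the prostaglandin D synthase, was the 1 gene of this list that was higher in KO than in WT mice at both temperatures, with means of 7.17 ± 0.72 in KO cold and 5.38 ± 0.15 in WT cold mice and of 7.60 ± 0.21 in KO and 5.22 ± 0.39 in WT mice at room temperature.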

How the data were processed

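RNA of 12 brown fat samples was measured on expression arrays. The values used are the authors' deposited log2 signals per probe set; per the submitters' processing notes they came from oligo with RMA, limma is also listed, versions are missing, and the genome build is not given in the sources used here. Of 41345 probe sets, 23521 carried 1 gene symbol, 1814 several and 16010 none. The brightest probe set per gene was kept, which left 22180 genes. The fit over the 12 arrays used limma 3.58.1 (R 4.3.3, eBayes) with a mean for each of the 4 groups. Tests were two-sided, the Benjamini-Hochberg adjustment ran over every gene with 0.05 as the threshold, and the fit was tested on simulated data. For arrays, their number limits the precision.

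The members, gene lists and settings were chosen with earlier results of these data known. Named were the 10 members, called members of the lists (at most 4 per list and comparison), the members' receptors, Zbtb7b, Ucp1, Dio2 and the 3 nearest patterns of each called member. Alb, Socs3, Cebpb, Lcn2 and Ccl2 were given outside that rule, after their values were seen. The alternatives were averaging the probe sets of a gene, testing each probe set on its own, keeping only genes averaging 5 or more, cyclic loess, median centring, a trended robust spread, a replicate block, only the arrays compared, a skeletal muscle covariate and leaving out each array. The replicate numbers were not taken as pairs: 6 of 18 same-numbered pairs of arrays correlated above 0.1 in their deviations from the group means.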

Additional observations from a re-analysis of the deposited data

Results flagged for a closer look

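The knockout difference of Lep was flagged because it ran in opposite directions at the 2 temperatures. Every KO cold array lay below the WT cold mean, and every KO room temperature array lay above the WT room temperature mean. The difference of KO minus WT mice was -1.82 in the cold and 1.25 at room temperature, and the contrast between them was -3.07. By the test of that contrast it had an unadjusted p of 0.00247 and an adjusted p of 0.248 over all genes (limma), so it did not pass. It ranged from -3.54 to -2.31 over the 20 alternatives, and the value nearest 0 came without WT cold replicate 2.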

How the results depend on the processing

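Of the 7 calls on members, 4 (Lep and Rbp4 in KO mice, Fgf21 and Metrnl in WT mice, all cold against room temperature) passed in every alternative that kept the gene, and Fgf21, Il6 and Metrnl had no value where genes averaging under 5 were dropped. The calls lost were those of Lep and Nrg4 in WT mice and of Metrnl in KO mice, under the alternatives given with each gene. Of 33 member results that did not pass, 9 changed sign and 3 passed somewhere (Adipoq in both genotypes and Fgf21 in KO mice). The number of members called in WT mice in the cold was 2 to 5 when 1 array was left out, against 4, and in KO mice 2 to 4, against 3. For the knockout, 0 members were called in each alternative at either temperature. Over all genes, the knockout in the cold called 202 genes, against 397 among genes averaging 5 or more, 32 from the arrays compared alone and 36 to 289 without 1 array. At room temperature it called 122, against 37 from the arrays compared alone and 50 to 164 without 1 array. The cold in KO mice called 4254, against 2737 from the arrays compared alone. The difference of cold responses called 6, against 17 after median centring, 26 among genes averaging 5 or more, 3 after averaging probe sets, 12 with the muscle covariate, 19 with a trended robust spread and 3 to 20 without 1 array. The cause of these moves was not tested. With the replicate number as a block the counts were 140 and 91 for the knockout in the cold and at room temperature, 4072 and 3660 for the cold in KO and WT mice and 7 for the difference of responses, the block changed no call on a member, and an array correlated best with its own number in 10 of 36 cases. With 3 arrays a group, changes as small as those of Adipoq and Nrg4 lie near what these tests can call, and Fgf21 and Il6 lie near or below the median signal.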

Other observations

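Dio2, which activates thyroid hormone in brown fat, ranked 1 of all genes by the higher cold response in KO than in WT mice, at 6.69 in KO and 3.28 in WT mice (difference 3.41 ± 0.30, adjusted p = 0.00190). Its level at room temperature was 4.86 in KO and 8.41 in WT mice (-3.55 ± 0.21, adjusted p = 1.14e-05), and in the cold 11.55 in KO and 11.69 in WT mice (-0.14 ± 0.21, adjusted p = 0.823). In the same contrast Lep ranked 4 from the other end by size (-3.07 ± 0.81), but it did not pass (adjusted p = 0.248).

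Among the other secreted factors, Lcn2, an iron-scavenging protein of the innate response, rose in KO mice in the cold (1.81 ± 0.55, adjusted p = 0.0380) and stood at 0.54 ± 0.55 in WT mice (adjusted p = 0.595). The responses differed by 1.27 ± 0.78, which did not pass (adjusted p = 0.595). For Lcn2 each KO cold array lay above each KO room temperature array. KO cold replicate 3 had the highest neutrophil list mean, and the part of neutrophils in the rise of Lcn2 was not tested. Ccl2, which draws monocytes, stood at 0.09 ± 0.39 in KO mice in the cold (adjusted p = 0.916) and rose in WT mice (1.25 ± 0.39, adjusted p = 0.0429). At room temperature it stood 1.29 ± 0.39 higher in KO than in WT mice (adjusted p = 0.192). Of 17 macrophage genes, 4 rose and 1 (Csf1r, -0.76) fell in the cold in KO mice (median 0.18), and 9 rose and 0 fell in WT mice (median 0.72), among them C1qb by 1.16 ± 0.25 and Cd163 by 1.08 ± 0.18. Over all genes 8.34% were called higher and 10.8% lower in KO mice, and 9.39% higher and 7.98% lower in WT mice. The test of the difference between responses called 0 of the 17. At room temperature the median difference of the macrophage genes between KO and WT mice was 0.72, and 0 of the 17 passed, against 0.55% of all genes.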
